A study of Mus musculus with 29 samples.

Results

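The genes described here encode the nuclear subunits of the mitochondrial respiratory chain and of ATP synthase. They were taken by symbol: every gene of the deposited table whose name begins with Nduf and a letter a, b, c, s or v before a number, with Uqcr, with Cox4 to Cox8, or with Atp5, leaving out names that end in -ps, which mark pseudogenes. This gave 80 of 24346 genes: 37 named for complex I, 8 for complex III, 18 for complex IV and 17 for complex V. The rule used no measured value.

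Messenger RNA was sequenced from liver and hippocampus of male C57BL/6J mice. All mice, controls included, were first made obese by 10 weeks of high-fat diet and then spent 4 weeks on their regimen, so none of the groups had eaten chow throughout. The regimens were high-fat diet eaten freely (HFD), high-fat diet with alternate-day fasting (HFD-IF), a switch to control chow eaten freely (CC), and control chow with intermittent fasting (CC-IF). Of the livers, 4 came from HFD, 2 from HFD-IF, 4 from CC and 4 from CC-IF mice. Of the hippocampi, 4 came from each of HFD, HFD-IF and CC and 3 from CC-IF mice. The sources used here state neither the age of the mice nor whether they were fasting or feeding when tissue was taken. Libraries are called by the index in their column of the table.

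The respiratory chain passes electrons from food to oxygen and pumps protons out of the mitochondrial matrix, and ATP synthase lets the protons back to make ATP. Complex I oxidises NADH, complex III passes electrons from ubiquinol to cytochrome c, complex IV (cytochrome c oxidase) hands them to oxygen, and complex V is ATP synthase. In liver this machinery draws on fatty acid oxidation during fasting, and in neurons it pays for ion pumping and transmission. Most subunits are nuclear genes as here, while a core set is encoded in mitochondrial DNA. None of the 13 genes of that core set stands in the table, so they were not analysed here.

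Levels are given in FPKM, fragments scaled to transcript length and to library size, so that genes can be set side by side. The members are short, and how the unknown program scaled short transcripts is not known. Rankings between members are therefore rankings of the listed FPKM only. The tissue labels matched their markers. The summed FPKM of 7 hepatocyte genes was 25970 to 80910 in livers, and that of 8 neuronal genes was 2078 to 2489 in hippocampi against at most 3.79 in livers. Albumin (Alb) was listed at 0 in 8 of 14 livers, among them all 4 CC-IF and 3 of the 4 CC livers, and at 29210 to 43970 FPKM in the others. A liver without albumin is not plausible, so an exact 0 in this table can be a failed estimate. Depth, estimated from low values, was 9.8 to 16.15 M fragments in liver and 12.35 to 38.65 M in hippocampus.

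Libraries stood apart in ways that touch the results. HFD-IF liver 1 had the highest summed FPKM of 8 stellate cell and fibroblast genes (528.9 against 143.8 to 257 in the other 13 livers), of 8 macrophage and Kupffer cell genes (396.7 against 71.92 to 193) and of 8 genes of infiltrating macrophages (134.9 against 43.13 to 87.24). CC-IF liver 2 held transcripts of skeletal muscle: the sum over 10 muscle genes was 70.44 FPKM against 0.3655 to 2.027 in the other livers. In hippocampus, 5 of 15 libraries (HFD 0, 2 and 3, CC 2 and CC-IF 2) had high levels of the choroid plexus transcript Ttr. They were at 957.2 to 1744 FPKM, against 7.482 to 320.1 in the other 10. Leaving these 5 out keeps only library 1 of HFD and libraries 0 and 1 of CC-IF. How far fewer libraries account for calls lost in such fits was not tested. In tissue pieces of mixed cells, fewer cells of a type and less RNA per cell cannot be told apart.

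Sequences before the start site are shown for some of the subunits that rose in fasted chow livers. They are also shown for 2 complex IV subunits, the ubiquitous Cox6a1 and the muscle form Cox8b. The genes shown were picked by hand. RefSeq promoters on GRCm38.p6 matched 66 of the 80 members by symbol. The RefSeq start used for Cox7a2l lies inside the span given below for its gene, so its line is not upstream of the whole gene. Each line gives 120 bases, 5′ to 3′ on the strand of the gene, taken from the 250 bases before the start and outside GENCODE exons. Capitals mark a match, on either strand, to the motif of the oestrogen-related receptors (TCAAGGTCA), of ETS factors (CCGGAAGT) or of NRF1 (GCGCA, any base, then GCGC), and the printed windows hold no overlapping matches. These factors are known regulators of respiratory genes.
Uqcrfs1 (chr13:30545363-30545482, minus strand): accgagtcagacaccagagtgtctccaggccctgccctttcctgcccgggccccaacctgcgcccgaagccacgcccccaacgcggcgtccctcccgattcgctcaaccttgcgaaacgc
Cox7a2l (chr17:83514334-83514453, minus strand): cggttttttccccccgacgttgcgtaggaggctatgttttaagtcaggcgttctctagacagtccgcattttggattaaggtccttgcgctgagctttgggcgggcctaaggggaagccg
Atp5b (chr10:128083153-128083272, plus strand): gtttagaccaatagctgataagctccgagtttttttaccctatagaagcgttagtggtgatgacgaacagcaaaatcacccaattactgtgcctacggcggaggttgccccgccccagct
Atp5g3 (chr2:73911327-73911446, minus strand): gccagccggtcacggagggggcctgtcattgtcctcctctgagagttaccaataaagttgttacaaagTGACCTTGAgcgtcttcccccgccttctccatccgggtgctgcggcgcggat
Uqcrh (chr4:116075072-116075191, minus strand): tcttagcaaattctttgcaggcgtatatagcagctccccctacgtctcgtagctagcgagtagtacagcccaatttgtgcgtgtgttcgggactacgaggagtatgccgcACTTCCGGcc
Cox6a1 (chr5:115349006-115349125, minus strand): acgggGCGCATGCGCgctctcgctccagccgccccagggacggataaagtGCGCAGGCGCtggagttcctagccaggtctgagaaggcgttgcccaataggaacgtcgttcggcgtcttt
Cox8b (chr7:140900447-140900566, minus strand): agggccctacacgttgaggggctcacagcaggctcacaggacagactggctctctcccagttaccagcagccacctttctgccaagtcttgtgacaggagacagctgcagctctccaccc

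The 66 members had 72 promoters. Atp5g3 held the only match to the oestrogen-related receptor motif among them (1.39%), 52 bases before its start. Of all 32851 promoters, 0.387% held one. The promoter of Uqcrh was 1 of 3 member promoters (4.17%) with the ETS motif, which 2.88% of all promoters held. Its match began 11 bases before the start. The NRF1 motif stood in 12 of 72 member promoters (16.7%) and in 3.74% of all promoters. Cox6a1 held it 162 and 117 bases before its start. The other printed windows hold none of the 3 motifs, which says only that these letters are not there. Ndufs3 and Uqcr10, which also rose and are not shown, held none of the 3 in the 250 bases searched. The median GC content of the member promoters was 55.6%, and that of all promoters 52.4%.

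Liver transcripts of these subunits stood above those of hippocampus in each complex, with complex III furthest apart. The 8 complex III subunits summed to 3338 FPKM on average over the 14 livers and 1077 over the 15 hippocampi, a ratio of 3.099. The ratio was 2.00 for complex I (6127 against 3070 FPKM), 1.68 for complex IV (6114 against 3646) and 2.26 for complex V (7079 against 3132). The FPKM of Atp5k, subunit e of ATP synthase, was the highest of complex V in both tissues, at 1663 ± 305 in liver (SD, n = 14) and 889 ± 131 in hippocampus (SD, n = 15).

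**Figure D1:**
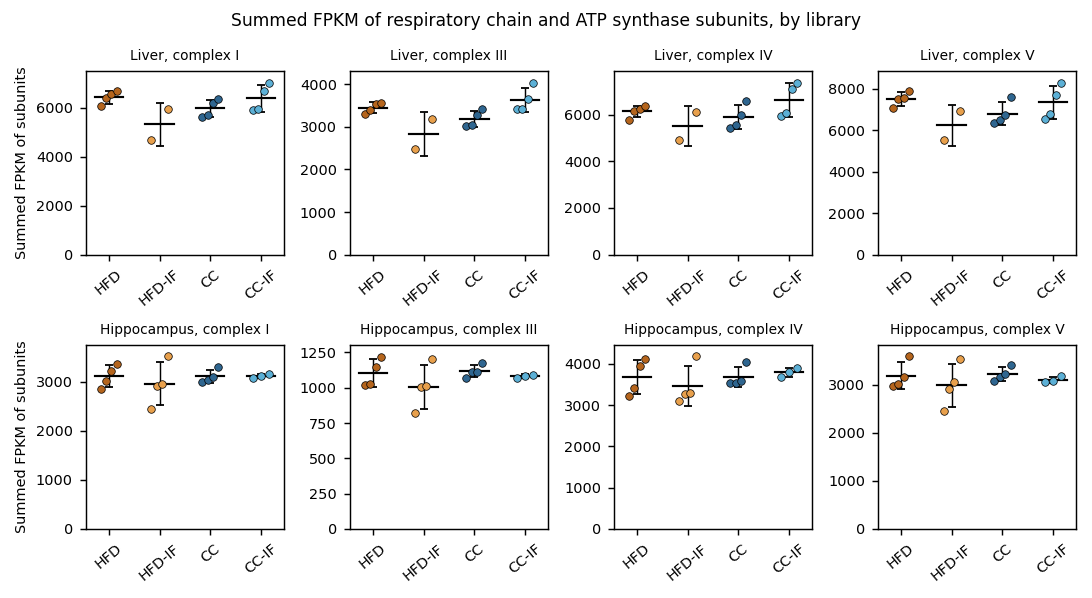
Summed FPKM of the subunits of each complex (y axis, from 0) by regimen (x axis), with 1 point per library, the mean as a bar and the SD as a whisker, liver above and hippocampus below. Among HFD-IF livers, library 1 has the lowest sum of all livers in each complex, at 4699, 2473, 4900 and 5534 FPKM, and HFD-IF hippocampus 2 has the lowest of all hippocampi, at 2452, 818.4, 3102 and 2460 FPKM.

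Within complex I, Ndufa3 (644.9 ± 84.7 FPKM, SD, n = 14) and Ndufa4 (552.7 ± 70.1) were the most abundant in liver, and both led in hippocampus too, at 346.2 ± 68.3 and 188.6 ± 27.5 (SD, n = 15). Ndufa4 carries a complex I name but is now known as a subunit of complex IV. Its paralogue Ndufa4l2 was the lowest of the complex I names, at 2.51 ± 0.67 FPKM in liver and 1.31 ± 0.37 in hippocampus. In complex III, Uqcrq, which lies next to cytochrome b, led in liver with 1072 ± 115 FPKM, and Uqcr11 led in hippocampus with 249.4 ± 31.7. The catalytic iron-sulphur protein Uqcrfs1 was the lowest in hippocampus (46.8 ± 4.0) and second lowest in liver (165.3 ± 20.5), next to Uqcrc2 (124.6 ± 11.9).

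In complex IV, Cox7c (988 ± 138 FPKM), Cox6c (862.3 ± 109) and Cox6a1 (782.5 ± 84.6) led in liver, all overlapping within 1 SD of their neighbour, whereas Cox8a led in hippocampus with 795.6 ± 104. In complex V the lowest were Atp5s (2.70 ± 0.68 FPKM in liver and 4.15 ± 0.71 in hippocampus) and Atp5sl (19.6 ± 4.7 and 11.8 ± 1.4). Neither is a structural subunit: Atp5s is the coupling factor B, and Atp5sl is known as an assembly factor of complex I.

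Of 77 members that could be tested, 70 were higher and 4 lower in liver, averaged over the 4 regimens (limma on log2(FPKM + 1), adjusted p under 0.05), and 3 did not pass. Of all 14415 genes, 91.9% were called and 44.9% were higher in liver. The median difference was 1.03 for the members and -0.03 for all genes, and 58 members had no overlap between the tissues with liver above, where 31.5% of genes did so. FPKM is relative to each library's total, so the difference does not give amounts per cell.

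The largest differences in favour of liver were those of Uqcrq (2.32 ± 0.06, SE, on the log2 scale), Ndufa6 (1.84 ± 0.05) and Uqcrfs1 (1.78 ± 0.04). Uqcrb (1.77 ± 0.07), Atp5g3 (1.75 ± 0.05), Atp5e (1.70 ± 0.08) and Ndufs6 (1.61 ± 0.06) followed. Ndufa6 is an accessory subunit of complex I, Uqcrb binds ubiquinone, Atp5g3 makes the rotating c ring and Atp5e belongs to the central stalk. Cox8a, the ubiquitous subunit VIII, differed by -0.07 ± 0.07 (limma adjusted p = 0.346), and Ndufa12 by 0.02 ± 0.05 (adjusted p = 0.776). Ndufs5, which has a near-identical copy in another gene, differed by -0.29 ± 0.19 (limma adjusted p = 0.145).

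**Figure D2:**
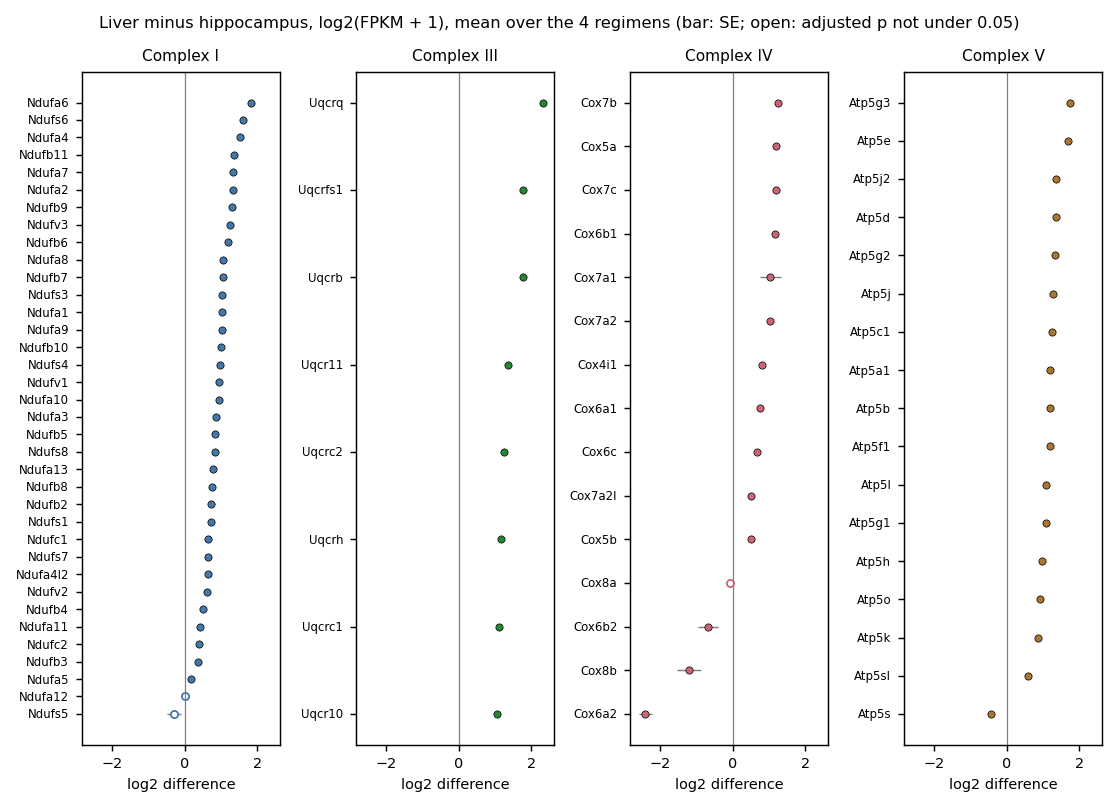
Difference between liver and hippocampus in log2(FPKM + 1) for the members shown (x axis, liver minus hippocampus, mean over the 4 regimens), sorted within each complex, with SE bars and open symbols where the adjusted p was not under 0.05. All 8 complex III subunits lie at 1.051 or above, and 4 filled symbols lie below 0: Cox6a2, Cox8b, Cox6b2 and Atp5s.

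The 4 members lower in liver included 3 complex IV isoforms that other tissues are known for. Cox6a2 and Cox8b are the heart and skeletal muscle forms of subunits VIa and VIII. Cox6a2 was 4.21 to 6.65 FPKM in every hippocampus, while 8 of 14 livers were listed at 0 and the highest was 4.199, in the muscle-bearing CC-IF liver 2. The tissues did not overlap, and the difference was -2.41 ± 0.17 on the log2 scale. Cox6a2 and Cox8b reached a mean of 1 FPKM only in hippocampus and entered the comparison through the tissue where they are high, so their differences are given as a description. The paralogue Cox6a1 still made up 98.8% of the Cox6a FPKM in hippocampus and 99.9% in liver.

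The liver value of Cox8b lay at -1.21 ± 0.32 from that of hippocampus, and the 4 highest hippocampal levels were in libraries with high Ttr. It was 5.72, 2.33 and 8.24 FPKM in HFD hippocampi 2, 3 and 0, 16.26 in CC 2 and 3.42 in CC-IF 2, the libraries with high Ttr. In the other 10 hippocampi it was 0 to 2.60 FPKM. Without those 5 libraries the difference was -0.65. Among livers, the highest Cox8b was 5.64 FPKM in CC-IF liver 2, where the muscle genes Acta1 (11.5 FPKM), Mb (9.43) and Ckm (4.68) were also present. The next highest liver had 1.18 FPKM. Cox6b2 differed by -0.69 ± 0.27 (limma adjusted p = 0.0194), and the value was -0.24 without HFD-IF liver 0 (adjusted p = 0.275), -0.45 without the hippocampi with high Ttr (adjusted p = 0.193) and -1.14 without HFD-IF liver 1. The part of choroid plexus and muscle transcripts in these levels was not tested.

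Cox7a1, the heart and skeletal muscle form of subunit VIIa, went the other way. Its FPKM was 3.80 to 24.8 in livers, with a median of 12.5, and 0 to 16.01 in hippocampi, with a median of 4.80. The ranges overlapped, and liver was higher by 1.04 ± 0.28 (limma adjusted p = 0.00126). It made up 4.57% of the FPKM of Cox7a1, Cox7a2 and Cox7a2l in liver and 3.68% in hippocampus, where Cox7a2 held 59.6% and 51.9%. Cox7b2, Cox8c and Cox4i2, the lung form of subunit IV, stayed under a mean of 1 FPKM in both tissues and were not tested. Cox7b2 and the testis form Cox8c were listed at 0 in all 14 livers, and Cox4i2 was 0 to 0.78 FPKM in livers and 0.26 to 2.16 in hippocampi.

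**Figure D3:**
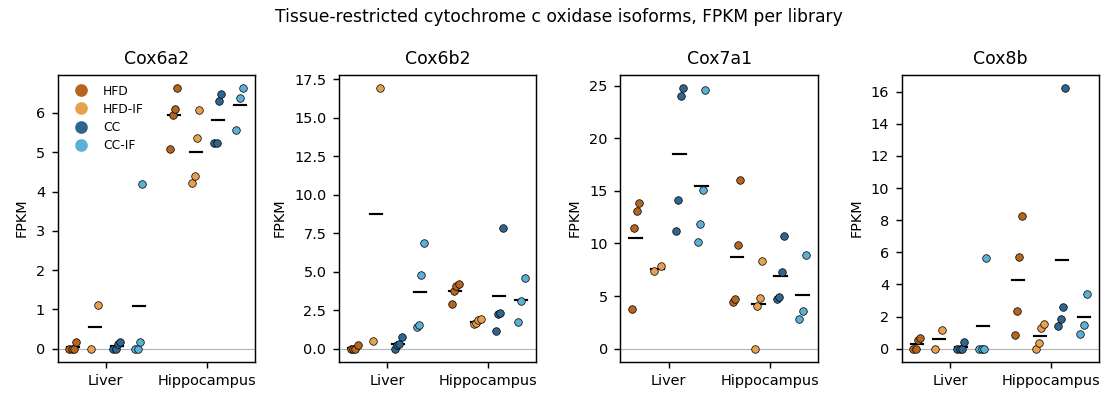
FPKM of 4 tissue-restricted complex IV isoforms in each library (y axis), by tissue and coloured by regimen, with group means as bars. Cox6a2 separates hippocampus from all livers, Cox6b2 reaches 16.97 FPKM in HFD-IF liver 1, and Cox8b reaches 16.26 FPKM in CC hippocampus 2.

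The c ring of ATP synthase is made from 3 genes that encode the same mature protein. In liver Atp5g3 gave 47.1% ± 2.9 of their summed FPKM (SD, n = 14), Atp5g1 34.7% ± 3.0 and Atp5g2 18.1% ± 1.4. In hippocampus Atp5g1 gave 42.8% ± 3.0 (SD, n = 15), Atp5g3 37.6% ± 2.7 and Atp5g2 19.6% ± 1.0. The share of Atp5g3 was at most 41.4% in any hippocampus and at least 42.1% in any liver, so the tissues did not overlap.

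Intermittent fasting on chow is the comparison in which most subunits passed the threshold in liver. Against CC, 9 of 75 tested members rose in CC-IF livers and 0 fell. They include Uqcrfs1, Uqcr10 and Uqcrh of complex III, Ndufs3 of complex I, Cox7a2l of complex IV, and Atp5a1, Atp5b and Atp5g3 of complex V. The 12% called lies below the 24% called among all 11497 genes, and 14.2% of all genes rose, so the count is not particular to these subunits. Their median change was 0.16 on the log2 scale against 0.02 for all genes, and 62 of 75 were positive, as were 53% of all genes. Groups lay apart, CC-IF above CC, for 16 members, and 17.4% of all genes did the same.

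Uqcrfs1, the iron-sulphur protein that hands electrons to cytochrome c1, lies at chr13:30540308-30545362 on GRCm38. It was at 146.3, 151, 140.2 and 148 FPKM in the CC livers and at 184, 207, 197 and 175 in the CC-IF livers. All CC-IF livers exceeded all CC livers, and the 4 HFD livers lay between them at 153 to 173 FPKM, the lowest just above the highest CC liver. The change was 0.38 ± 0.08 (SE), the smallest adjusted p of the members in limma (0.00351), and the call held without any single library.

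Cox7a2l is a homologue of Cox7a2 known for joining complexes III and IV into supercomplexes, and the C57BL/6 strain carries a shortened form of its protein. The gene lies at chr17:83501918-83517330 and has a near-identical copy, so reads may be shared. It was at 91.5, 105, 96.2 and 87.2 FPKM in the CC livers and 116, 135, 151 and 123 in the CC-IF livers, without overlap. It rose by 0.46 ± 0.09 (limma adjusted p = 0.0037), the largest change of the 9. HFD livers were at 88.4 to 104 FPKM, within the CC range of 87.2 to 105, and the 2 HFD-IF livers at 113 and 107.

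Atp5b, the catalytic beta subunit of ATP synthase (chr10:128083273-128090391), was at 628, 638, 591 and 607 FPKM in the CC livers and 696, 822, 769 and 757 in the CC-IF livers. It rose by 0.30 ± 0.08 (limma adjusted p = 0.0136), again without overlap. Like those of Uqcrfs1 and Cox7a2l, its call held when any 1 of the 14 livers was left out.

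For 5 others the call was lost when some single library was left out. The share of all genes called in fits with libraries left out is not given here. Atp5g3 rose by 0.33 ± 0.09, Atp5a1, the alpha subunit that alternates with beta in the F1 head, by 0.32 ± 0.09 and Uqcr10 by 0.34 ± 0.10. Ndufs3, a core subunit of the peripheral arm, rose by 0.32 ± 0.11 (limma adjusted p = 0.0451) and Uqcrh, the hinge protein, by 0.26 ± 0.09 (adjusted p = 0.0459), and each missed the threshold in 10 of the 14 fits with a library left out. Over those fits 4 to 15 members were called: 4 without CC liver 1, 4 without CC-IF liver 1, 5 without CC-IF liver 3 and 15 without either HFD-IF liver. With HFD-IF liver 1 and CC-IF liver 2 both left out, 16 rose and 0 fell.

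**Figure D4:**
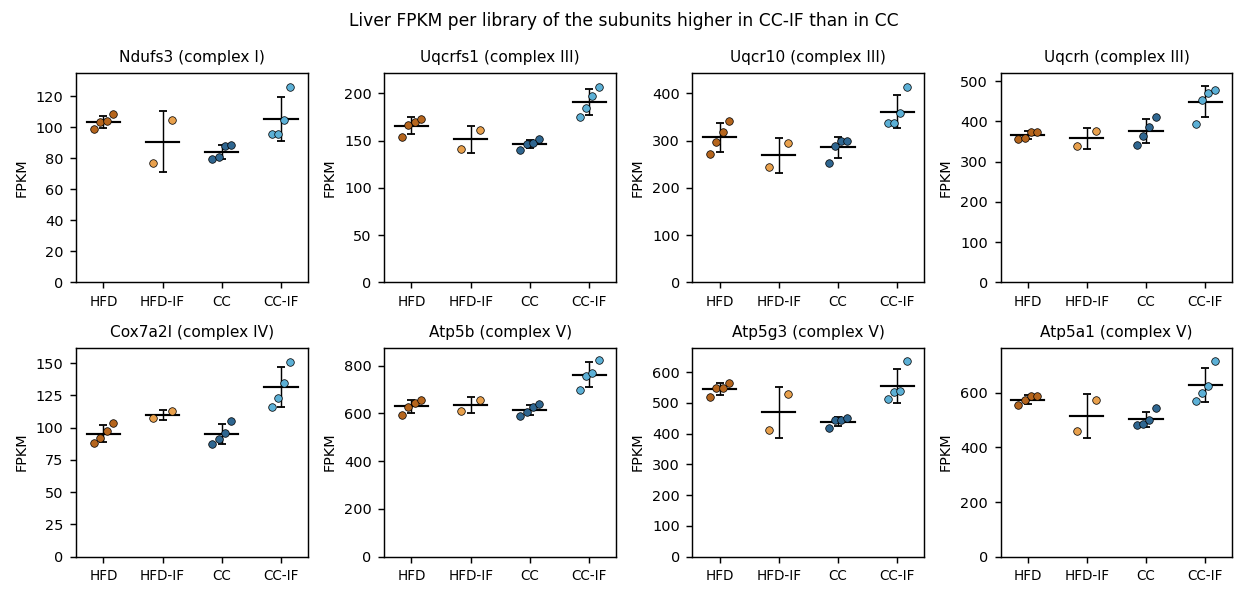
FPKM per library (y axis, from 0) of 8 subunits that rose in CC-IF against CC livers, by regimen, with means as bars and SD as whiskers. In 7 of the panels all 4 CC-IF points lie above all 4 CC points, and for Uqcrh the groups overlap at 394 and 411 FPKM.

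By role, 2 of the 7 core subunits of complex I and 0 of its 30 other names rose, with median changes of 0.23 and 0.12. Of the 3 subunits that form the Rieske and core proteins of complex III 1 rose, and of the 5 small ones 2. In complex IV 0 of the 10 ubiquitous subunits rose, with a median of 0.14 and values from -0.11 to 0.25. In ATP synthase, 2 of 5 subunits of the F1 head and central stalk rose (median 0.24, range 0.16 to 0.32), 0 of 4 of the peripheral stalk (median 0.10), 1 of 3 of the c ring and 0 of 3 of the membrane subunits e, f and g. Differences between these groups were not tested, and 14.2% of all genes rose in the same comparison. Members with transcripts of at most 809 nt had a median change of 0.15, and longer ones 0.17.

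**Figure D5:**
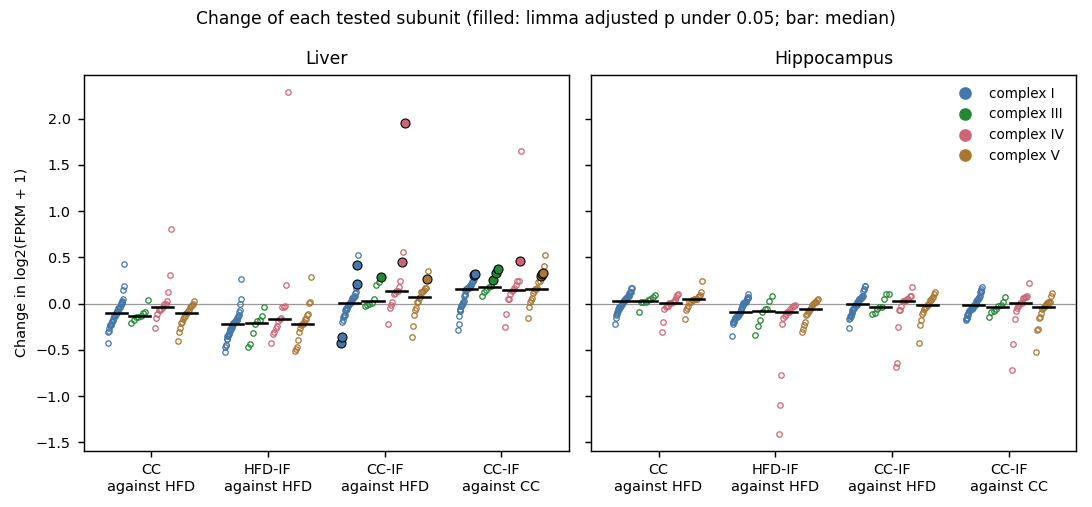
Change in log2(FPKM + 1) of each tested member (y axis) for 4 contrasts (x axis) in liver and hippocampus, coloured by complex, with medians as bars and filled points for adjusted p under 0.05. The filled points are the 8 members of CC-IF against HFD and the 9 of CC-IF against CC in liver, and hippocampus has none.

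Genes around the chain were read from lists of assembly factors and regulators. In CC-IF against CC livers 14.2% of all genes rose and 24% were called in either direction. The list counts below were not tested against these shares. In the same livers, the nuclear receptor Esrra, which is known to switch on respiratory genes, was at 9.19 to 11.8 FPKM on CC and 21.9 to 23.7 on CC-IF. It rose by 1.09 ± 0.08 (limma adjusted p = 7.57e-06), and Tfb2m, a mitochondrial transcription factor, by 0.37 ± 0.09, so 2 of 13 regulators rose and 0 fell. Of 8 genes of complex II, the succinate dehydrogenase, the membrane anchors Sdhd (0.51 ± 0.09) and Sdhc (0.31 ± 0.07) rose. In complex IV assembly 4 of 24 rose, among them Coa6 (0.90 ± 0.13), Cmc2 (0.37 ± 0.11) and Coa5 (0.31 ± 0.09), and 2 fell, the copper chaperone Cox19 (-0.41 ± 0.12) and Pet100 (-0.29 ± 0.09). The fourth that rose was Surf1 (0.22 ± 0.07). Ndufaf4 was 1 of 14 complex I assembly factors that rose (0.55 ± 0.12), Uqcc1 1 of 6 for complex III (0.42 ± 0.07), and 0 of 3 for complex V did. Of 5 subunits and carriers outside the symbol rule, such as Cycs (cytochrome c) and Cyc1, 0 passed.

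Against livers on continued high-fat diet, chow with fasting gave 6 members that rose and 2 that fell of 75. Those that rose include Cox6b2, which is given below as a description. The share called was 10.7%, and 23.7% of all genes were called. The comparison shares the CC-IF livers with the one against CC. Groups lay apart for 10 members with CC-IF above and 1 with CC-IF below, where 27.8% of all genes lay apart in either direction. Cox7a2l rose by 0.45 ± 0.09 (limma adjusted p = 0.00471) and Ndufs7, a core subunit that holds the last iron-sulphur cluster before ubiquinone, by 0.42 ± 0.09 (adjusted p = 0.00591), and both calls held without any single library. Ndufs7 was at 94.4, 104, 99.3 and 112.5 FPKM in the HFD livers and at 124, 148, 142 and 138 in the CC-IF livers, without overlap.

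Uqcrh (0.29 ± 0.09) and Atp5b (0.27 ± 0.08) also rose. Ndufb3, an accessory subunit with a near-identical copy, fell by 0.42 ± 0.14: it was 176, 182, 186 and 204 FPKM in the HFD livers and 120.1, 153, 167 and 122 in the CC-IF livers, without overlap. Ndufs8, a core subunit with 2 iron-sulphur clusters, fell by 0.36 ± 0.12, with 69.5 to 86.8 FPKM against 56.9 to 73.1 and an overlap. The median over the 75 members was 0.02, and 2 to 8 were called when a single library was left out: 2 without HFD liver 0 and 2 without HFD liver 2. It was 3 without CC-IF liver 3, 4 without HFD liver 1, HFD liver 3 or CC-IF liver 2, and 5 without CC liver 1, CC-IF liver 0 or CC-IF liver 1. In the lists around the chain, Esrra rose by 0.95 ± 0.08, while 2 of 24 complex IV assembly genes rose and 6 fell, where 12.4% of all genes rose and 11.3% fell. Those that fell include Higd1a (-0.63 ± 0.13), Cox19 (-0.57 ± 0.12) and Cox18 (-0.56 ± 0.14).

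Cox6b2, known as the testis form of subunit VIb, rose by 1.95 ± 0.60 in the same comparison (limma adjusted p = 0.0318). It passed the filter on low values only through the fasted livers, so its rise is given as a description. Its FPKM was 6.90, 1.53, 4.78 and 1.43 in the CC-IF livers, 0.25 and 3 times 0 in the HFD livers, and 0 to 0.77 in the CC livers. HFD-IF livers 0 and 1 were at 0.49 and 16.97 FPKM, the second being the library with the highest fibroblast and macrophage markers, whose part was not tested. Of the FPKM of Cox6b1 and Cox6b2 together, Cox6b2 made up at most 2.88% in any liver. The call was lost without a filter on low values (limma adjusted p = 0.0573) and in 6 of the 14 fits with a library left out.

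On high-fat diet, fasting gave 0 called members of 75 in liver, where 1.32% of all genes were called, and 21 members (28%) had an unadjusted p under 0.05, as did 17.8% of all genes. Of these, 20 were lower and 1 higher. The median change was -0.21 against -0.01 for all genes, 68 of 75 were negative, and 20 lay apart with HFD-IF below HFD, as 12.8% of all genes did, and 2 with HFD-IF above, as 9.4% did. The smallest p values were those of Atp5e (-0.51 ± 0.15, limma adjusted p = 0.114), Ndufa12 (-0.38 ± 0.11) and Ndufa3 (-0.45 ± 0.14). Atp5e was at 408, 386, 406 and 528 FPKM in the HFD livers and at 338 and 268 in the 2 HFD-IF livers.

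These values rested on 1 of 2 libraries. The median change was -0.06 without HFD-IF liver 1, the library with the highest fibroblast and macrophage markers. It was -0.35 without HFD-IF liver 0. Each of these fits keeps a lone HFD-IF liver, so only the medians are given. Marker levels moved with the low subunits in HFD-IF liver 1, and their part was not tested.

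The switch to chow without fasting gave 0 called members of 75 in liver, where 2.3% of all genes were called (0.339% higher and 1.97% lower), and 12 (16%) had an unadjusted p under 0.05, as did 18.7% of all genes. The median was -0.10 against -0.02 for all genes, 60 of 75 were negative, and 11 lay apart with CC below HFD, as 9.5% of all genes did, and 0 with CC above, as 4.6% did. Atp5g3 had the smallest p (-0.31 ± 0.09, limma adjusted p = 0.0999): the HFD livers were at 563, 518, 549.5 and 548 FPKM and the CC livers at 444, 450.4, 419 and 443, without overlap. Atp5e (-0.40 ± 0.12, limma adjusted p = 0.104) and Ndufb3 (-0.42 ± 0.14, adjusted p = 0.117) came next. Among the listed assembly genes around the chain, those called in this comparison all fell. They were Uqcc1 (-0.35 ± 0.07), Cox14 (-0.56 ± 0.12), Ndufaf1 (-0.47 ± 0.09) and Taco1 (-0.52 ± 0.11). When the fit held only HFD and CC livers, 3 members fell. The share of all genes called in that fit is not given here, so the count is not known to be particular to these subunits.

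Whether fasting acted differently on the 2 diets in liver was tested as the change on chow minus the change on high-fat diet. No member of 75 was called, 1.11% of all genes were, and 35 members (46.7%) had an unadjusted p under 0.05, as did 18.3% of all genes. The median was 0.35 against 0.04 for all genes, and 72 of 75 were positive, as were 54.4% of all genes. All 17 complex V names and all 8 complex III subunits were among the positive ones. Uqcrfs1 (0.51 ± 0.12, limma adjusted p = 0.0608) and Atp5g3 (0.56 ± 0.15, adjusted p = 0.0862) had the smallest p. CC-IF against HFD-IF likewise gave 0 called members, where 0.591% of all genes were called, with a median of 0.26 and 72 of 75 positive. There 24 members lay apart with CC-IF above, as 12.6% of all genes did, and 1 with CC-IF below, as 8.61% did. Both turn on the pair of HFD-IF livers: without HFD-IF liver 1 the medians were 0.22 and 0.08 with 0 called, and without HFD-IF liver 0 they were 0.50 and 0.42 with 30 and 29 called.

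In hippocampus 0 of 77 tested members were called by limma in any of the 6 contrasts. Of all 12857 genes, 0.00778% (1 gene) were called in CC-IF against CC and 0% in the other contrasts. At an unadjusted p under 0.05 there were 2 members in CC against HFD, 10 in HFD-IF against HFD, 1 in CC-IF against CC, 1 in CC-IF against HFD-IF, 3 in CC-IF against HFD and 0 in the difference of fasting changes. Of all genes, 3.56%, 7.6%, 6.39%, 2.98%, 8.8% and 3.39% had such a p in the same order. The count of called members was 0 when any single hippocampus was left out and when the 5 with high Ttr were left out together. Groups lay apart for 1 member in CC against HFD, where 2.47% of all genes did, and for 1 in HFD-IF against HFD, where 3.28% did. In CC-IF against CC they lay apart for 3 members with CC-IF above and 7 with CC-IF below, where 8.98% of all genes did.

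The median changes in hippocampus were 0.03 for CC against HFD, -0.09 for HFD-IF against HFD, -0.02 for CC-IF against CC and -0.01 for CC-IF against HFD. The medians of all genes were 0.04, 0.05, -0.02 and 0.02. In HFD-IF against HFD, 57 of 77 members were negative and Uqcr10 had the smallest p (-0.34 ± 0.11, limma adjusted p = 0.576). Shorter transcripts lay lower there: across the 77 genes, which are not replicates, Spearman's rho between transcript length and change was 0.54, where it was 0.24 for the same contrast over 75 genes in liver. How length enters these values was not tested. Atp5e had the smallest p in CC-IF against CC (-0.52 ± 0.15, limma adjusted p = 0.471), at 126 to 133 FPKM in the 4 CC hippocampi and 79.0, 95.3 and 94.6 in the 3 CC-IF hippocampi.

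The change with fasting on chow was then compared between the tissues in 1 model. It was higher in liver for 7 of 75 members and lower for 0, where 13.8% of all 9939 genes were called and 8.79% were higher. Uqcrfs1 differed by 0.52 ± 0.12 (limma adjusted p = 0.0035), and its call held without any single library and without the 5 hippocampi with high Ttr. In hippocampus Uqcrfs1 was at 43.9, 49.1, 50.4 and 52.4 FPKM on CC and 41.9, 48.55 and 42.6 on CC-IF, with overlap.

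Those that followed included Atp5e (0.68 ± 0.20), Atp5s (0.69 ± 0.21), Atp5g3 (0.48 ± 0.14), Cox7a2l (0.45 ± 0.13) and Ndufb10 (0.39 ± 0.13). Each of them missed the threshold without the hippocampi with high Ttr. The share of all genes called in that fit is not given here, and the part of the fewer libraries was not tested. Atp5e and Atp5s are lower in CC-IF than in CC hippocampi, by -0.52 and -0.28, while the liver values are 0.16 and 0.41, none of which passed alone. For CC against HFD the tissues differed for 0 members, where 1.39% of genes were called. For CC-IF against HFD they differed for Cox6b2 and Cox7a2l (2 of 75, with 11.3% of genes called). For HFD-IF against HFD they differed for Cox6b2 (1 of 75, with 1.63% called). Cox6b2 passed the filter in liver only through the fasted livers, so its differences are given as a description. Leaving out the 5 hippocampi with high Ttr keeps only library 1 of the HFD hippocampi, so counts of that fit are not given for these contrasts. Without HFD-IF liver 1 the HFD-IF against HFD difference of Cox6b2 was 1.26 in place of 3.06.

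Some members share sequence with other genes. Of the 80, 22 have a copy in another gene that is at least 95% identical over at least 50% of the coding sequence, among them Cox7a2l, Ndufs3, Ndufb3, Uqcr10, Ndufs5 and Atp5l, which has 8. The counting program is not given in the sources used here, so how such reads were divided is unknown. Members are short, with a median transcript of 750.5 nt against 3017 nt for the genes of the table with a mean of at least 1 FPKM.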

How the data were processed

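Poly-A RNA of liver and hippocampus was sequenced as stranded paired reads of 125 nt, per the labels' protocols. FPKM values per gene were deposited by the authors in 1 table. The submitters' processing notes name FastQC 0.11.9, Trimmomatic 0.39, TopHat2 2.1.1, Bowtie2 2.3.5.1 and the mouse build GRCm38 (mm10). The program that gave the FPKM, with its annotation and any scaling between libraries, is not given in the sources used here.

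Of 32 samples in the series design, 29 columns were analysed. Columns were tied to groups by name, not to numbered samples. log2(FPKM + 1) of genes with a mean FPKM of at least 1 was fitted with limma 3.58.1 (R 4.3.3, trend), 1 fit per tissue over 4 regimens and 1 fit over both tissues, with Benjamini-Hochberg adjustment over all genes tested and a threshold of 0.05. The fits were tested on simulated data with independent noise for each gene. This did not test how libraries that stand apart, as some do here, affect the calls. Replicates are biological, per the series design. Depth was estimated from the steps between low values, since no counts were used. Transcript lengths and coordinates are from GENCODE M21, and copies were searched with blastn 2.17.0.

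The members and lists were chosen with earlier results of these data known. Named were members past the threshold, the smallest p values, extremes of level and tissue difference, paralogue sets, and up to 6 called genes per pathway list. Results of 1 member are not reported here. The muscle and near-identical copy lists and 3 alternatives were chosen after seeing the data. Alternatives were a pseudocount of 0.1, no filter, median-centred libraries, fits of only the groups compared, and leaving out libraries.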

Additional observations from a re-analysis of the deposited data

Results flagged for a closer look

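In groups of 4, a library far from the other 3 was looked for with Dixon's test over 19 genes and the complex sums. It marked 13 of 144 groups. The usual rate of about 1 in 20 holds for continuous values. In a group with 3 values of 0 any value above 0 is marked, so the count cannot be set against that rate. In livers, HFD library 3 had 0.2496 FPKM of Cox6b2 and 0.1651 of Cox6a2 where the other 3 were at 0. HFD library 0 had 0.3859 FPKM of Cox4i2 and CC library 0 had 0.4337 of Cox8b, again against 0. CC-IF library 2, the one with skeletal muscle transcripts, had 4.199 FPKM of Cox6a2 and 5.642 of Cox8b. Atp5e reached 436.4 FPKM in CC-IF library 1 and 527.6 in HFD library 1.

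In hippocampi, CC library 2, which has high Ttr, had 16.26 FPKM of Cox8b and a complex IV sum of 4053 FPKM. CC library 1 had 254.1 FPKM of Atp5a1, CC library 0 had 133.3 of Atp5e, and HFD-IF library 2 had 2.161 of Cox4i2.

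The change with fasting on chow differed between the tissues, tested as liver minus hippocampus in limma, for Uqcrfs1 (0.515), Atp5g3 (0.4794), Cox7a2l (0.4486), Atp5e (0.6751), Atp5s (0.69) and Ndufb10 (0.3866). CC-IF against HFD differed for Cox6b2 (2.203) and Cox7a2l (0.4047). HFD-IF against HFD differed for Cox6b2 (3.061), and this value was 1.264 without HFD-IF liver 1. Cox6b2 passed the filter in liver only through the fasted livers, so its values are a description.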

How the results depend on the processing

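In liver the number of members called was 5 without a filter on low values for CC-IF against HFD, and 3 for CC against HFD when only those groups were fitted. Without HFD-IF liver 1 and CC-IF liver 2, chosen after seeing the data, it was 16 for CC-IF against CC and 2 for CC against HFD. For the difference of changes between tissues it was 1 (CC-IF against HFD) and 0 (HFD-IF against HFD) without a filter. Without the hippocampi with high Ttr, chosen after seeing the data, it was 2 for CC-IF against CC. Counts against HFD are not given there, since only library 1 of the HFD hippocampi is kept. Shares of all genes called in these alternative fits are not given here. It is therefore not known whether changes in count are particular to the members.

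With single libraries left out, the liver counts ran from 0 to 1 (CC against HFD), 0 to 22 (HFD-IF against HFD), 4 to 15 (CC-IF against CC), 0 to 29 (CC-IF against HFD-IF), 2 to 8 (CC-IF against HFD) and 0 to 30 (difference of fasting changes). A lone HFD-IF liver was assumed to vary like the other groups. The differences between tissues ran from 4 to 10 (CC-IF against CC) and from 0 to 3 (CC-IF against HFD). Hippocampal counts were 0 in every alternative run. The liver minus hippocampus value of Cox8a turned positive when libraries were centred (0.06479) and without the hippocampi with high Ttr (0.01251). That of Ndufa12 ran from -0.0009253 to 0.03435. The causes were not tested.

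Table columns carry an index that could not be tied to the replicate numbers of the titles. Fits with this index as a replicate block, chosen after seeing the data, called 5 members for CC-IF against CC and 3 for CC-IF against HFD in liver. They called 0 for the tissue differences of CC-IF against HFD and of HFD-IF against HFD, and moved no other count by over 1.5 times. The share of all genes called in these fits is not given here. Whether the fewer calls are particular to the members is therefore not known. Whether equal indices mark the same mouse is not known. Between liver and hippocampus of the same regimen and index, the correlation of deviations from group means ran from -0.24 to 0.096 over 13 pairs. It was above 0.1 in 0 of them, and 2 livers correlated best with their own index. Tissues of the same mouse need not deviate together, so these values cannot decide it. Depth was estimated only, and 2 HFD-IF livers limit each contrast that uses them.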
